A study of Homo sapiens with 12 samples.

Results

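The human genes for translation initiation factors, whose symbols begin with EIF and a digit, were examined for the histone mark H3K4me3 at their promoters. They were taken by symbol from the protein-coding genes of GENCODE on GRCh37, without hyphenated names, and numbered 55 of the 20098 genes on chromosomes 1 to 22 and X. The mark was profiled by CUT&RUN, in which antibody-tethered nuclease cuts out marked chromatin, whose DNA is then sequenced. The cells were BON1, a human pancreatic neuroendocrine tumor line, from 500000 cells per condition. Control cells (BON1/TGL/pQ) were set against BON1/TGL/HA-Bcl-xL cells, which overexpress the anti-apoptotic protein Bcl-xL with an HA tag, and both grew with puromycin. Background came from parallel libraries made with a rabbit anti-mouse IgG. Peak lists of 11 libraries were used, 5 with the H3K4me3 antibody (3 control, 2 HA-Bcl-xL) and 6 with IgG (3 per line). The H3K4me3 library of HA-Bcl-xL replicate 1 is not analysed here. Libraries are named below by their label numbers, 1 to 3 for control and 2 and 3 for HA-Bcl-xL, and values follow that order. The labels do not say that replicates were separate cultures or whether a line was a clone, so any p-value measures only the spread between these samples.

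Initiation factors bring the ribosome to an mRNA and place the initiator tRNA at the start codon. eIF2 carries that tRNA and is recharged by the exchange factor eIF2B, and kinases that phosphorylate eIF2 on its alpha subunit slow this exchange under stress. eIF3 is the large scaffold on the small ribosomal subunit, eIF4F binds the mRNA cap and unwinds the leader, and the 4E-binding proteins hold eIF4E back. H3K4me3 marks the nucleosomes beside active start sites, most often at CpG-rich promoters.

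The stretches below show pairs in which the parent gene and a copy elsewhere in the genome differed in peak calls, and the 1 gene called only in HA-Bcl-xL libraries. Each runs 5′ to 3′ on the gene's strand from 100 bases before to 30 bases from the canonical transcript start onward (GRCh37), and capitals mark the CpG dinucleotides. EIF2S3 encodes the gamma subunit of eIF2, and its promoter stretch at chrX:24072973-24073102 (+ strand) held 10 CpG. EIF2S3B, a copy of that gene, had 11 CpG at chr12:10658389-10658518 (+ strand), and 121 of the 130 bases were the same as in EIF2S3. EIF5A, which helps ribosomes through difficult peptide bonds, had 13 CpG at chr17:7210847-7210976 (+ strand). Its copy EIF5AL1 had 8 CpG at chr10:81272189-81272318 (+ strand). EIF1AX, which helps the small subunit scan for the start codon, had 17 CpG at chrX:20159927-20160056 (− strand).
EIF2S3: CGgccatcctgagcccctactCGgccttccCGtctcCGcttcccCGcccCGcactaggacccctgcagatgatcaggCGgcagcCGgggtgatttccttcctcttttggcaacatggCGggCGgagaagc
EIF2S3B: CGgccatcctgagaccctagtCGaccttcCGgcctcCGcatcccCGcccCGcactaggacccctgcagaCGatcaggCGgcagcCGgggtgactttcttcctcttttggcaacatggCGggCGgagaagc
EIF5A: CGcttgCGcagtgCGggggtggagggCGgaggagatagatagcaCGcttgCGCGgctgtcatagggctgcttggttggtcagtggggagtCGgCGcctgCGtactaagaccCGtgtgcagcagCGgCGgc
EIF5AL1: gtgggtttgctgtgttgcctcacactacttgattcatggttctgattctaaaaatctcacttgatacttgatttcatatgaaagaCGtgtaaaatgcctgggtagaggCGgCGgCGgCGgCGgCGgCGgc
EIF1AX: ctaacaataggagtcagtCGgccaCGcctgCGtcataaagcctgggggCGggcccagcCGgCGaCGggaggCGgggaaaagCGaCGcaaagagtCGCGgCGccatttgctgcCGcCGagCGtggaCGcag

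The H3K4me3 lists held 10237 to 17687 peaks on these chromosomes, and the IgG lists 239 to 2106. Read totals are not in the lists, so depth was solved from each peak's fold and p-value as the number of fragments at its summit. The median was 9 to 12 fragments per H3K4me3 list, which limits what a missing call can show. Of 10 neuroendocrine markers, 4 (CHGB, NEUROD1, SCG2 and SCG3) had a promoter peak in all 5 H3K4me3 libraries (21.4% of all genes) and 3 (ENO2, INSM1 and SSTR2) in none (51.7%). CHGA was called in 1 library and SYP in 2. In the 2.5 kb window INSM1 had a peak in 5 of 5 libraries, ENO2 in 1 and SSTR2 in 0. TPH1, the serotonin-producing enzyme, was called with HA-Bcl-xL (2 of 2 libraries) but in 0 of 3 control libraries, as were 0.846% of all genes. The 5 matched markers of other cell types (PTPRC, CD3E, ALB, COL1A1 and SOX10) were without a 1 kb promoter peak in every library. In the 2.5 kb window COL1A1 and SOX10 each had a peak in 1 library. In a population of cells, a mark on fewer cells and less mark per cell cannot be told apart.

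Most initiation factor genes carried an H3K4me3 peak within 1 kb of their most 5′ annotated end. Such a promoter peak was found for 43, 34 and 33 of the 55 genes in control replicates 1 to 3, against 40.5%, 32.4% and 28.2% of all protein-coding genes. It was found for 41 and 36 in HA-Bcl-xL replicates 2 and 3, against 38.2% and 36.5%. As shares of the 55 genes these were 78.2%, 61.8%, 60%, 74.5% and 65.5%, so every library gave a larger share for initiation factors than for all genes. The mean was 36.7 ± 5.51 genes per control library (SD, n = 3) and 38.5 ± 3.54 genes per HA-Bcl-xL library (SD, n = 2). The difference of 1.83 genes was smaller than the pooled SD of 4.94, and the groups overlapped. Leaving out control replicate 1, 2 or 3 gave 5, 0.5 and 0, and it was 4.33 without HA-Bcl-xL replicate 3. Without HA-Bcl-xL replicate 2 it turned to -0.667, and with equal list lengths to -0.167. With a −log10 q of 5 or more it was 3.5.

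**Figure D1:**
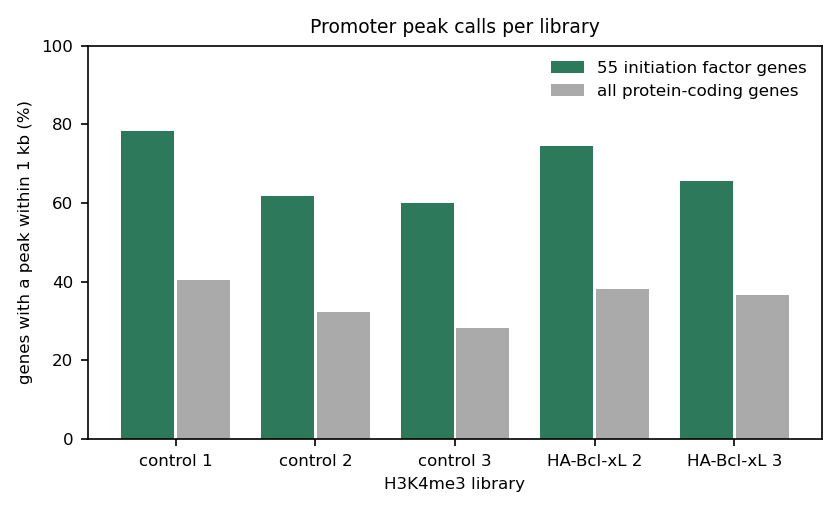
Bars give the percentage of genes with an H3K4me3 peak within 1 kb of the most 5′ end in each library, for the 55 initiation factor genes (green) and all protein-coding genes (grey). The initiation factor bars run from 60% to 78.2%, and those of all genes from 28.2% to 40.5%.

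Of the 55 genes, 27 (49.1%) had a promoter peak in all 5 H3K4me3 libraries, against 21.4% of all genes, and 46 (83.6%) in at least 1, against 48.3%. The count in all 5 libraries was 30 in a 2.5 kb window (25.6% of all genes), 32 at any transcript start (26.5%) and 30 at canonical starts (23%). It was 17 with a −log10 q of at least 5 (15.4%) and 22 with equal list lengths (18.0%). In 8 genes 1 library was missing, and for EIF2S3, EIF3H, EIF4A3 and EIF5 it was control replicate 3, the shortest list. Among all genes, 4.32% lacked a peak in that library only. Counted at canonical starts, EIF3H and EIF5 had a peak in 5 of 5 libraries. No initiation factor gene had an IgG peak within 1 kb in any of the 6 IgG libraries, against 0.786% of all genes. When every annotated transcript start was counted, 1 did, against 2.27%. That was EIF3D, an mRNA-binding subunit of eIF3, with a peak of 3 fragments in control IgG replicate 3 at chr22:36907040-36907126, beside a start 17543 bp from its most 5′ end.

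**Figure D2:**
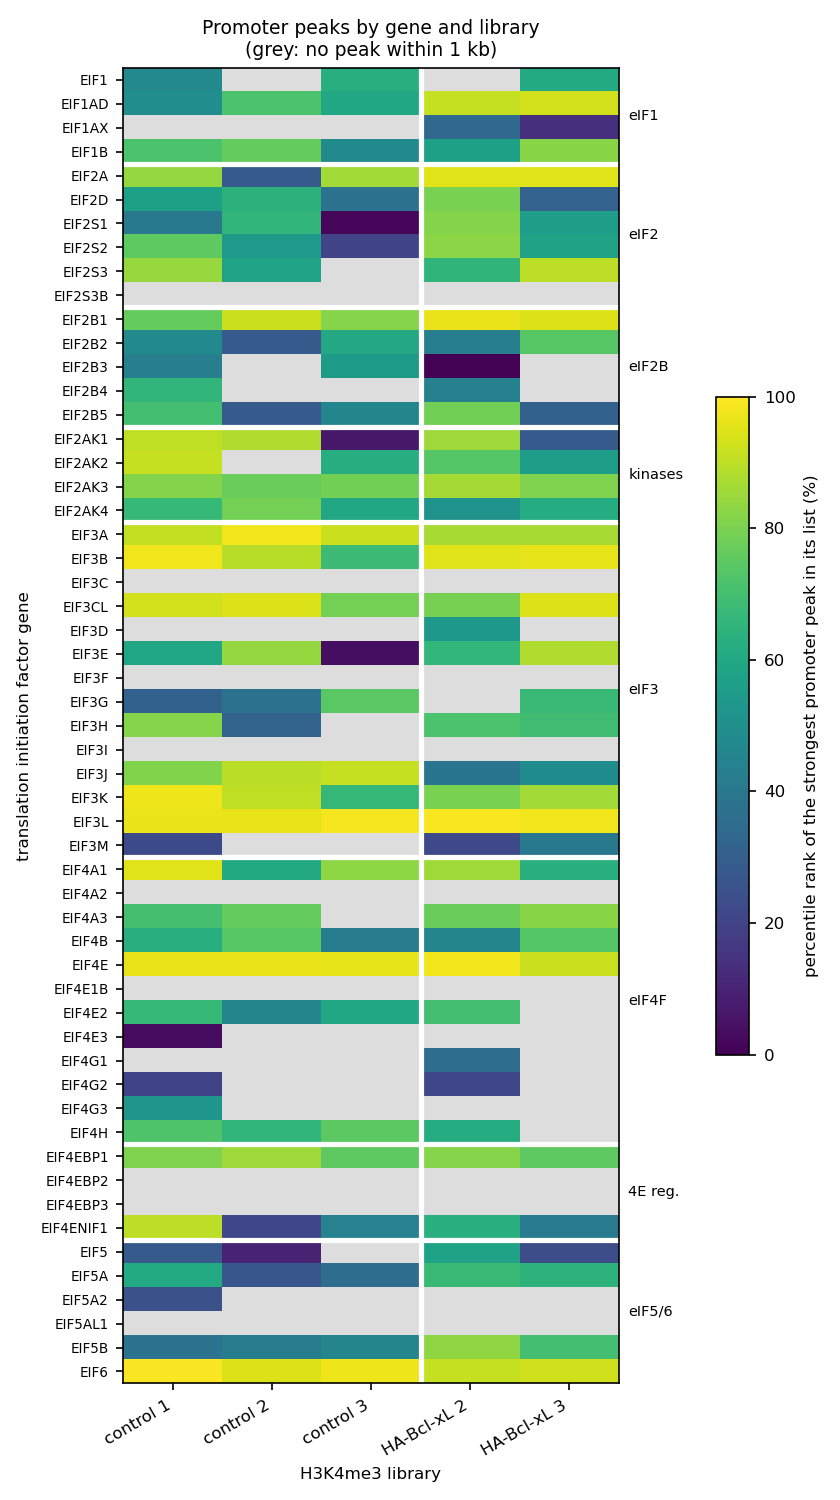
Each row is an initiation factor gene, grouped by factor, and each column an H3K4me3 library. Colour gives the percentile rank of the gene's strongest promoter peak within its own list, and grey marks no peak within 1 kb. EIF3L, EIF4E and EIF6 are above the 90th percentile in every column, and 9 rows are grey throughout.

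The strength of a peak is given below as its percentile rank by p-value within its own list, where 100 is the strongest. Since the lists differ in length, ranks are not read as changes between libraries. Across genes with a promoter peak, the median rank of initiation factors was 70.4, 72.9 and 62.2 in control libraries, and 73.7 and 71.9 in those of HA-Bcl-xL. For all genes it was 68.6, 65.2 and 64.2, and 68.2 and 67.5. The means over the 5 libraries were 70.2 ± 4.66 and 66.8 ± 1.93 (SD, n = 5). Control replicate 3 was the only library in which initiation factors had the lower median.

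In the eIF1 family, grouped here by symbol alone, EIF1AD and EIF1B had a peak in all 5 libraries (21.4% of all genes), and EIF1 and EIF1AX in some. EIF1AD had the highest mean rank of this family (72.9), with ranks of 49.1, 71.8 and 59.4 in control and 91.0 and 93.0 in HA-Bcl-xL libraries. Its summits held 13, 13 and 11 fragments in control and 20 and 21 in HA-Bcl-xL libraries. Fragment numbers were not tested or scaled for depth. The 5′ end of BANF1 lay 52 bp away and ran in the opposite direction, so a peak there cannot be assigned to either gene. EIF1, the start codon fidelity factor, was called in control replicates 1 and 3 and HA-Bcl-xL replicate 3, at 11 to 13 fragments.

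EIF1AX was the 1 initiation factor gene called with HA-Bcl-xL (2 of 2 libraries) but in 0 of 3 control libraries, a pattern shown by 0.846% of all genes. In HA-Bcl-xL replicate 2 the peak lay at chrX:20159460-20159556 with 8 fragments, at the 34.3 percentile of its list and 443 bp downstream of the 5′ end. In HA-Bcl-xL replicate 3 it lay at chrX:20159202-20159275 with 6 fragments, at the 13.6 percentile and 732 bp downstream. These were low-ranking peaks at separate positions. Control replicate 1 had a peak of 6 fragments at chrX:20158859-20158943 whose nearer edge lay 1013 bp from the 5′ end, just beyond the window. With equal list lengths EIF1AX was called in 0 of the 5 libraries, and with a −log10 q of at least 5 in 1. No gene of the 55 then showed this pattern under either setting, where 0.776% and 0.836% of all genes did. No gene was called in all control and no HA-Bcl-xL library, against 0.249% of all genes.

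These counts rested on single libraries. Without control replicate 1, EIF3M joined EIF1AX among the genes called only in HA-Bcl-xL cells, giving 2. Without HA-Bcl-xL replicate 3 there were 3, EIF1AX, EIF3D and EIF4G1, and EIF3G was then called only in control cells. Without HA-Bcl-xL replicate 2, EIF4E2 and EIF4H were called only in control cells, giving 2. The share of all genes with these patterns was not taken with a library left out, so these counts cannot be set against it. In the 2.5 kb window EIF4G1, the scaffold of eIF4F, took the place of EIF1AX (0.826% of all genes), and at any transcript start both were counted (0.901%). Its peak in HA-Bcl-xL replicate 3 began 1138 bp downstream of its 5′ end.

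Among eIF2 subunits and other tRNA-binding factors, 4 of 6 had a peak in all 5 libraries (21.4% of all genes). These were EIF2S1 and EIF2S2, the alpha and beta subunits, and EIF2A and EIF2D, which deliver tRNA outside the main route. EIF2A ranked highest on average (77.8), at 84.2, 28.5 and 86.2 in control and 95.2 and 94.9 in HA-Bcl-xL libraries. The low value of control replicate 2 came from a peak with its summit 902 bp downstream, while the summits of the other libraries lay 352 to 362 bp downstream. EIF2S3 was called in 4 libraries at 10 to 17 fragments, with summits at -16 to 20 bp from its most 5′ end. EIF2S3B had no peak in any library in either window or at any transcript start, although its printed stretch matched that of EIF2S3 in 93.1% of bases. Over 2000 bases around the canonical starts a global alignment matched 51.8% of positions.

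All 5 eIF2B genes had a peak in at least 2 libraries, and EIF2B1, EIF2B2 and EIF2B5 had one in all 5. Of all genes, 48.3% had one in at least 1 library and 21.4% in all 5. EIF2B1, the alpha subunit of the exchange factor, had ranks of 76.4, 92.2 and 81.8 in control and 96.8 and 94.9 in HA-Bcl-xL libraries. Its strongest peak held 14, 18 and 11 fragments in control and 22 and 20 in HA-Bcl-xL libraries. The peak was above the median of its list in every library. Its summits lay 574 to 710 bp downstream, and the 5′ end of GTF2H3, running in the opposite direction, lay 27 bp away. EIF2B3, the gamma subunit, was called in 3 libraries at 3 to 7 fragments. EIF2B4, the delta subunit, was called in control replicate 1 and HA-Bcl-xL replicate 2.

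The 4 genes of the eIF2-alpha kinases each had a peak in at least 4 libraries. Of all genes, 7.97% had a peak in 4 libraries and 21.4% in all 5. EIF2AK1 encodes the heme-regulated kinase, EIF2AK3 the endoplasmic reticulum stress kinase PERK and EIF2AK4 the amino acid sensor GCN2, and these 3 were called in all 5. EIF2AK2, the double-stranded RNA kinase PKR, lacked a peak in control replicate 2. EIF2AK3 had the highest mean rank (80.8), with 81.4, 77.0 and 78.8 in control and 86.4 and 80.5 in HA-Bcl-xL libraries. Its most 5′ end lay 155 bp from that of RPIA, which runs in the opposite direction, and 64054 bp from its canonical start. At the canonical start, where 5 of 5 libraries also had a peak, the ranks were 82.1, 40.5 and 64.5 in control and 86.4 and 45.3 in HA-Bcl-xL libraries.

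In eIF3, 7 of 14 subunit genes had a peak in all 5 libraries (21.4% of all genes), 4 in some and 3 (EIF3C, EIF3F and EIF3I) in none. Among peaks within 1 kb of the most 5′ end, EIF3L had the highest mean rank of the genes with a peak in all 5 libraries (97.9). Its ranks were 97.0, 96.7 and 98.5 in control and 99.0 and 98.0 in HA-Bcl-xL libraries, with 31, 23, 27, 33 and 30 fragments. The strongest of its 3 promoter peaks lay at the start in 3 libraries (chr22:38244755-38244949 in control replicate 1) and 802 to 803 bp downstream in the other two. The 5′ end of ANKRD54 lay 459 bp away in the opposite direction, so these peaks too cannot be assigned to either gene. EIF3A, the core scaffold subunit, followed at 86.8 to 97.8, and EIF3B, its RNA-binding partner, at 68.6 to 97.8. EIF3D was called in HA-Bcl-xL replicate 2 alone, at 10 fragments.

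The 3 eIF3 genes without a call had a most 5′ annotated end away from their canonical transcript start. So did called eIF3 genes, among them EIF3E (194779 bp) and EIF3H (11102 bp). The most 5′ end of EIF3E lay 105 bp from that of EMC2, which runs in the opposite direction. Peaks there cannot be assigned to either gene. For EIF3I, the WD-repeat subunit, the canonical start lay 1330 bp downstream (chr1, position 32688008). Peaks there held 31, 38 and 25 fragments in control and 31 and 40 in HA-Bcl-xL libraries, at ranks of 98.4, 99.7 and 98.9, and 99.1 and 99.7. In each of the 5 lists the peak of EIF3I ranked above the strongest promoter peak of EIF3L. At the canonical start of EIF3C, 22906 bp away, peaks were found in 5 of 5 libraries with 11 to 22 fragments. EIF3C and EIF3CL were identical at 1998 of 2000 bases around their canonical starts, so fragments could not be assigned with certainty to either copy. EIF3F had a canonical-start peak in 3 of 5 libraries, with 8 and 6 fragments in control replicates 1 and 2 and 12 in HA-Bcl-xL replicate 2. Counted at canonical starts, 10 of the 14 eIF3 genes had a peak in all 5 libraries, against 23% of all genes.

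Of the 12 genes grouped by symbol as eIF4F and its helpers, 3 had a peak in all 5 libraries, near the 21.4% of all genes. A further 7 had it in some and 2 in none. Per library the count was 9, 6 and 5 in control (40.5%, 32.4% and 28.2% of all genes) and 8 and 4 with HA-Bcl-xL (38.2% and 36.5%), so the lines overlapped. EIF4E, the cap-binding protein, had ranks of 96.9, 96.8 and 96.4 in control and 97.9 and 92.0 in HA-Bcl-xL libraries. Its strongest peak held 29, 24 and 20 fragments in control and 28 and 20 in HA-Bcl-xL libraries, with a summit 850 to 893 bp downstream of the start (chr4:99849317-99849466 in control replicate 1). EIF4A1, the main helicase of eIF4F, and EIF4B, its cofactor, were the others in all 5. EIF4A2, a second form of the helicase, had no peak within 1 kb, and its 2.5 kb window held a peak in control replicates 1 and 2, at 13 and 12 fragments.

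The EIF4G genes, which encode the eIF4F scaffold and its relative EIF4G2, were each called within 1 kb in at most 2 libraries. EIF4G1 had a peak in HA-Bcl-xL replicate 2, EIF4G2 in control replicate 1 and HA-Bcl-xL replicate 2, and EIF4G3 in control replicate 1. In the 2.5 kb window EIF4G3 was called in all 5 libraries, with peak edges 1417 to 1452 bp downstream in the 4 libraries without a nearer peak. EIF4E1B, the germline form of EIF4E, had no peak in any library or window, although its promoter was CpG-rich. EIF4E3, a divergent cap-binding protein, was called in control replicate 1 at 3 fragments.

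Of the genes that hold eIF4E back or move it, EIF4EBP1 and EIF4ENIF1 had a peak in all 5 libraries (21.4% of all genes). EIF4EBP2 and EIF4EBP3 had none within 1 kb. EIF4EBP1, a target of mTOR, had ranks of 80.8, 85.5 and 75.2 in control and 82.0 and 75.1 in HA-Bcl-xL libraries, with 14, 13 and 10, and 13 and 12 fragments. EIF4EBP2, its paralog, had a peak in the 2.5 kb window in 3 of 5 libraries, at 10 fragments in control replicate 2 and 11 and 7 in the HA-Bcl-xL replicates. EIF4ENIF1, the nuclear transporter of eIF4E, was called at its canonical start in only 2 of 5 libraries, control replicate 1 and HA-Bcl-xL replicate 2.

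Among eIF5 and eIF6 genes, EIF5A, EIF5B and EIF6 had a peak in all 5 libraries (21.4% of all genes). EIF6, which keeps the large ribosomal subunit from joining too early, had ranks of 99.2, 94.9 and 97.5 in control and 91.0 and 92.7 in HA-Bcl-xL libraries, with 39, 21 and 22, and 19 and 20 fragments. Its lowest rank in any list was thus 91.0. EIF5, which triggers GTP hydrolysis on eIF2, lacked a peak within 1 kb in control replicate 3 only. There the nearest peak began 1530 bp downstream. Counted from its canonical start, 693 bp downstream of the most 5′ end, EIF5 had a peak within 1 kb in 5 of 5 libraries. EIF5A2, a second EIF5A gene, was called in control replicate 1 at 6 fragments, and EIF5AL1 in no library or window.

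Peak width was compared between the lines as the bases under peaks within 1 kb, at the 4291 promoters with a peak in all 5 libraries. None was called with limma at an adjusted p of 0.05 (0.00% of those tested), and the smallest adjusted p was 0.824. At an unadjusted p under 0.05 there were 211 promoters, or 4.92%. The 27 initiation factor genes in this fit passed through having a peak in every library. Of these, 0 were called, and 1 (EIF5A) had an unadjusted p under 0.05. The log2 difference between HA-Bcl-xL and control was above 0 for 17 and below 0 for 10, with a median of 0.11 against -0.03 for all tested promoters. That median was -0.08 for the 17 genes left at a −log10 q of 5 or more.

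EIF5A had 98, 117 and 103 bp under peaks in the control libraries, against 224 and 219 bp with HA-Bcl-xL. The HA-Bcl-xL libraries had 2 peaks there and the control libraries 1. The log2 difference was 0.94 (SE 0.42, 95% interval 0.04 to 1.83), which limma gave an adjusted p of 0.964. It was 0.17 with equal list lengths and 0.31 in the 2.5 kb window, and the gene left the fit at a −log10 q of 5 or more, with a peak in 3 of 5 libraries. EIF2AK4 had 170, 180 and 111 bp in the control libraries, against 258 and 302 bp with HA-Bcl-xL, a log2 difference of 0.76 (SE 0.40, limma adjusted p 0.982). That became 0.25 with a −log10 q of at least 5 and 0.34 with equal list lengths. EIF6 had 323, 186 and 156 bp in the control libraries, against 382 and 335 bp with HA-Bcl-xL, a log2 difference of 0.63 (SE 0.39). In these 3 genes every HA-Bcl-xL value was above every control value.

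In the other direction, EIF2AK3 had 487, 277 and 262 bp in the control libraries, against 223 and 222 bp with HA-Bcl-xL, a log2 difference of -0.69 (SE 0.39, limma adjusted p 0.988). That became -0.42 with a −log10 q of at least 5 and -0.34 with equal list lengths. EIF4ENIF1 had 401, 176 and 319 bp in the control libraries, against 240 and 177 bp with HA-Bcl-xL, and EIF4EBP1 164, 257 and 149 bp in the control libraries, against 155 and 149 bp with HA-Bcl-xL. Both of these overlapped between the lines. Over the 27 genes, widths in HA-Bcl-xL lay wholly above control in 5 (EIF2AK4, EIF3CL, EIF4A1, EIF5A and EIF6), where 10.6% of all tested promoters did. They lay wholly below in 2 (EIF2AK3 and EIF3L), where 5.62% did. The 95% interval of the log2 difference held 0 for every gene but EIF5A.

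**Figure D3:**
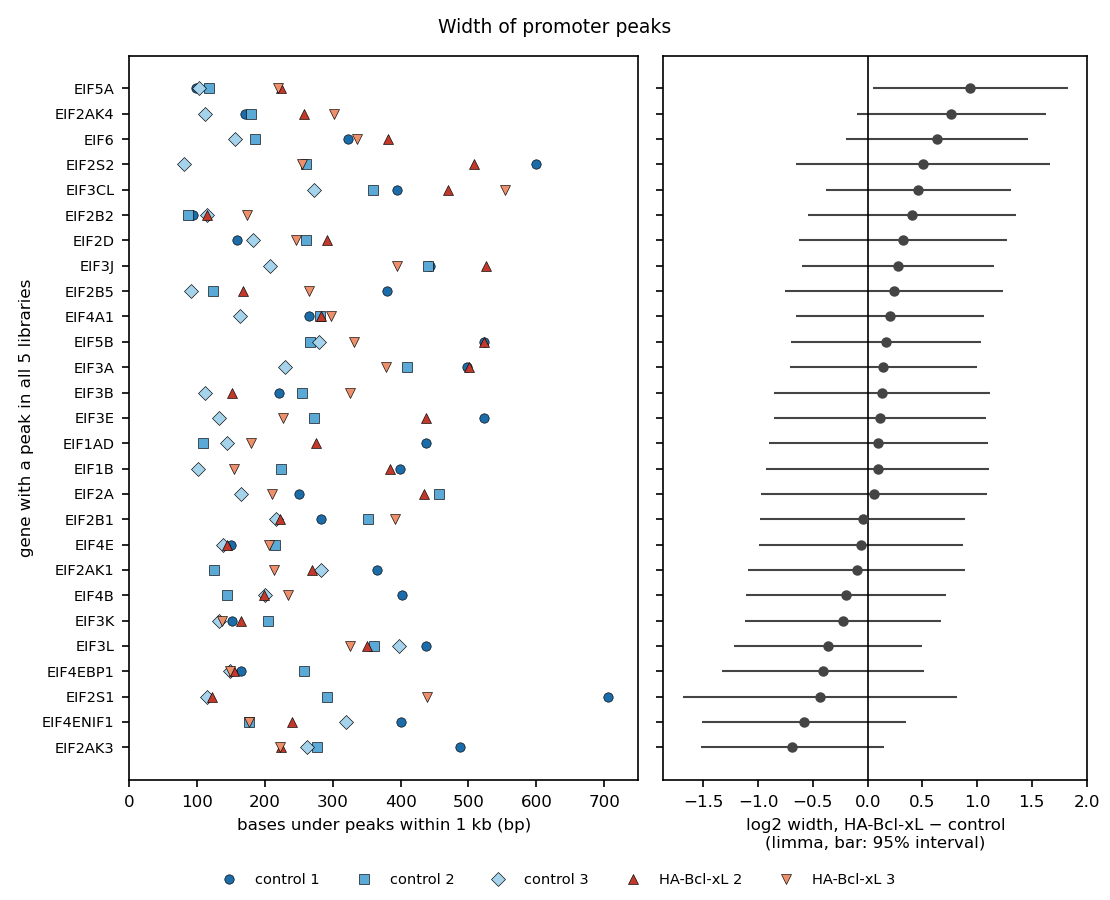
The left panel gives the bases under H3K4me3 peaks within 1 kb of the most 5′ end (bp) in each library, for the 27 genes with a peak in all 5 libraries. The right panel gives the log2 difference between HA-Bcl-xL and control from limma, with its 95% interval. The intervals cross 0 for all genes shown but EIF5A, whose interval runs from 0.04 to 1.83.

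The median summit lay further downstream of the most 5′ end in initiation factors than in all genes. The median position of the strongest summit was 173, 399 and 104 bp downstream in the control libraries, and 359 and 141 bp with HA-Bcl-xL. For all genes it was 50, 39 and 33 bp, and 47 and 44 bp. The means over libraries were 235.2 ± 134.3 and 42.6 ± 6.73 bp (SD, n = 5). Measured from the canonical start instead, the mean was -6 bp for initiation factors and -6.8 bp for all genes, so the offset was not seen at canonical starts. Summits lay downstream of the most 5′ end in 25 of 43, 22 of 34 and 19 of 33 genes in the control libraries. With HA-Bcl-xL it was 26 of 41 and 20 of 36. The shares over all genes with a promoter peak were 56.6%, 55.7% and 55.2%, and 57.2% and 57.0%. Positions were steady for EIF3A (610 to 645 bp), EIF3K (102 to 114 bp) and EIF4E. They moved between separate peaks of the same promoter for EIF2S1 (-534 to 685 bp) and EIF3J.

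**Figure D4:**
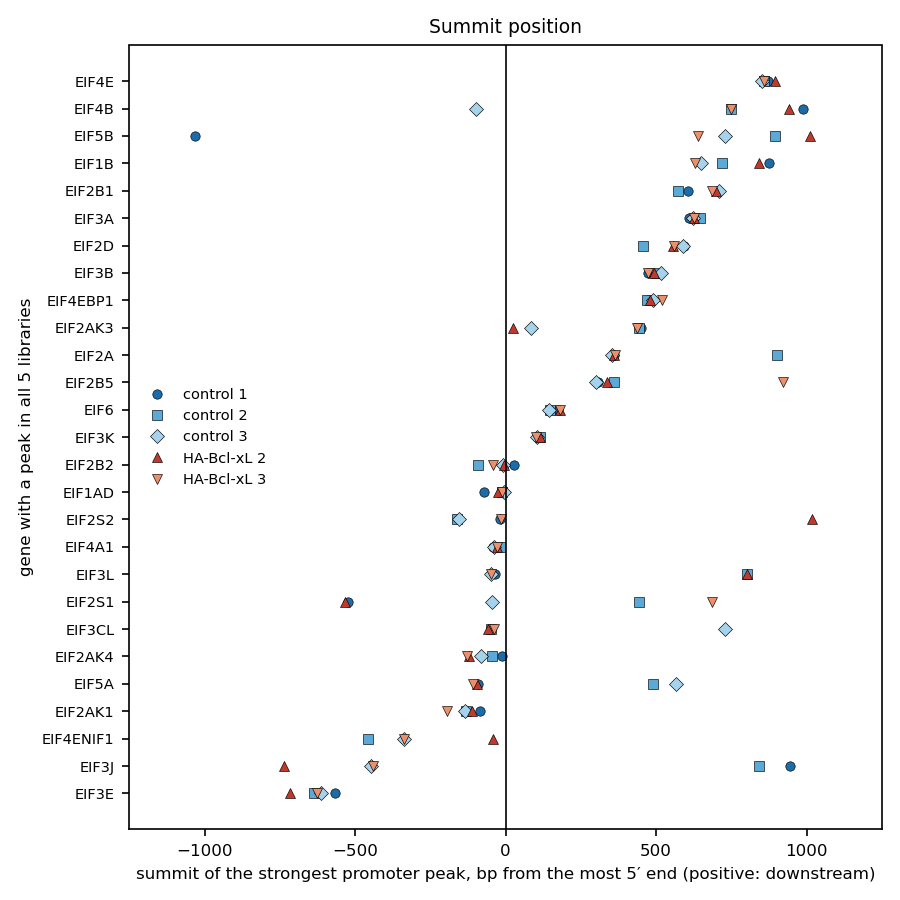
Each point is the summit of the strongest promoter peak in 1 library, in bp from the most 5′ end with positive values downstream, for the 27 genes with a peak in all 5 libraries. EIF4E summits lie 850 to 893 bp downstream in every library, while those of EIF2S1 lie on both sides of the start.

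Initiation factor promoters were CpG-rich more often than those of all genes. CpG-rich here means a GC content of at least 50% and an observed over expected CpG ratio of at least 0.6 in 300 bases, from 250 before to 50 from the most 5′ end onward. This held for 46 of 55 (83.6%, 95% Wilson interval 71.7 to 91.1%), against 54.9% of all genes. The median GC content was 62.7% against 60.3%, and the median CpG ratio 0.878 against 0.694. At canonical starts 52 of 55 (94.5%) were CpG-rich, against 65.1%. Among CpG-rich promoters, 25 of 46 initiation factors (54.3%) had a peak in all 5 libraries, against 31.7% of all genes. Among the others it was 2 of 9 (22.2%), EIF3L and EIF6, against 8.74%.

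Around the most 5′ end, the 9 genes without a peak had a median GC content of 52.0% and a CpG ratio of 0.673, against 62.7% and 0.935 for the 27 genes with a peak in all 5 libraries. Around canonical starts the medians of the same 9 genes were 60% and 0.838, against 63.7% and 0.962, so the gap in GC content depended on which start was taken. CpG-rich were 4 of 9 against 25 of 27 at the most 5′ end, and 6 of 9 against 27 of 27 at canonical starts. The 4 were EIF4A2, EIF4E1B, EIF4EBP2 and EIF4EBP3. The printed stretches of EIF5A and EIF5AL1 had a GC content of 66.9% and 50%. Those of EIF2S3 and EIF2S3B both had 66.2%. At its most 5′ end, 288 bp upstream of the canonical start, EIF2S3B had a GC content of 33.0%.

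**Figure D5:**
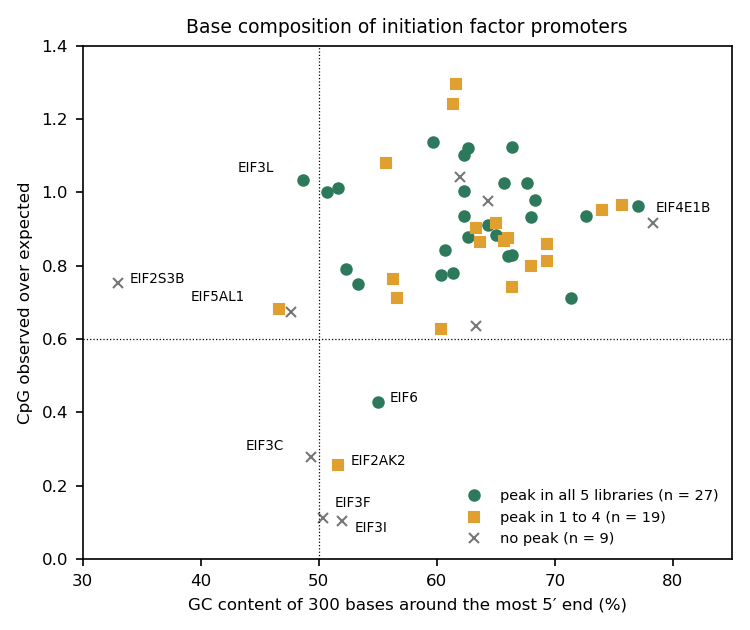
Each point is an initiation factor gene, placed by the GC content (%) and the CpG observed over expected ratio of 300 bases around its most 5′ end, with symbols for the number of libraries with a promoter peak. Dotted lines mark 50% and 0.6. Of the 9 genes without a peak, 5 lie outside the upper right field, as do 2 of the 27 with a peak in all libraries.

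A neighbouring gene began within 1 kb in the opposite direction for 13 of the 55 genes (23.6%), against 13.3% of all genes. All 5 libraries had a peak at 8 of these 13 (61.5%), against 50.6% of all genes with such a neighbour. Of the 42 without one, 19 (45.2%) did, against 16.9%. EIF3B and SNX8, EIF3K and MAP4K1, and EIF2S1 and ATP6V1D were such pairs, and their peaks cannot be assigned to either gene.

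Short motifs were counted in the same 300 bases on both strands. The E-box CACGTG, the site of MYC-family factors, which reads the same on both strands, was in 14 of 55 promoters (25.5%), against 8.33% of all genes. Among CpG-rich promoters it was in 28.3% of initiation factors (13 of 46) and 10.4% of all genes. Of the 14 genes, 7 had a peak in all 5 libraries, near the share among all 55 initiation factor genes (27, or 49.1%). It was 21.4% of all genes. The Sp/KLF box GGGCGG was in 43 (78.2%), against 52.2% of all genes, and among CpG-rich promoters in 87.0% (40 of 46) against 77.9%. That excess among CpG-rich promoters was not seen at canonical starts, with 80.8% (42 of 52) against 81.1%. In the RefSeq promoter table it was 75.6% (31 of 41) against 79.8%. The ETS motif CCGGAAG was in 13 (23.6%), against 11.8%, and among CpG-rich promoters in 28.3% (13 of 46) against 18.2%. CCAAT was in 24 (43.6%) against 35.8%, TATAAA in 4 (7.27%) against 10.9%, the NRF1 motif GCATGCGC in 2 (3.64%) against 3.74%, and the YY1 motif in 0 against 1.57%. At canonical starts the last 2 were in 4 (7.27%) against 4.24% and in 2 (3.64%) against 2.30%, so their order against all genes turned with the start. None of these motifs contains another.

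The E-box with 17 bases on each side is shown for 5 genes with a peak in every library, with the motif in capitals, on the gene's strand in GRCh37. Positions count the first base of the motif from the most 5′ end. EIF4E held 2, at -225 (chr4:99850487-99850526) and -72 (chr4:99850334-99850373), both on the − strand. EIF3A held it at -13 (chr10:120840320-120840359, − strand), EIF3B at -3 (chr7:2393701-2393740, + strand), EIF3K at 4 (chr19:39109708-39109747, + strand) and EIF1B at -54 (chr3:40351127-40351166, + strand). A match describes these letters and not binding.
EIF4E distal: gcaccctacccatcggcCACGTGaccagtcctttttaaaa
EIF4E proximal: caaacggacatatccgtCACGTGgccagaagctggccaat
EIF3A: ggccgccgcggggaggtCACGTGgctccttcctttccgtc
EIF3B: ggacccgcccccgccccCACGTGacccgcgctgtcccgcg
EIF3K: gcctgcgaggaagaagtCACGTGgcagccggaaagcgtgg
EIF1B: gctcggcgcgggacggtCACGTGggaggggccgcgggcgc

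Of 30 other translation genes, 12 had a promoter peak in all 5 libraries, against 21.4% of all genes, and 10 in none, against 51.7%, and the count per library was 17, 15 and 13 in control and 18 and 17 in HA-Bcl-xL replicates. The elongation factor genes EEF2 and EEF1G, the termination factor gene ETF1 and the kinase gene MTOR were among the 12. EEF1A1, the main elongation factor gene, was among the 10, and at its canonical start and in the 2.5 kb window it also had a peak in 0 libraries. EEF2K, the kinase of EEF2, was called with HA-Bcl-xL (2 of 2) but in 0 of 3 control libraries, as were 0.846% of all genes. No gene of the list showed the opposite pattern, against 0.249%. At canonical starts the number with a peak throughout was 14 of 30 (23% of all genes), and in the 2.5 kb window it was 17 (25.6%).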

How the data were processed

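H3K4me3 and IgG CUT&RUN libraries of control and HA-Bcl-xL BON1 cells were given as narrowPeak lists, called per library. The labels name a ThruPLEX kit. The submitters' processing notes name bcl2fastq 2.20, Trimmomatic 0.36, Bowtie2 2.2.9, MACS2 2.1.1, deepTools 3.5.1 and hg19, with no parameters, and the duplicate treatment is not given in the sources used here. The deposited lists give each peak a score, a fold enrichment over background as a ratio, a −log10 p and a −log10 q. These authors' values were used only within their own list, to rank or filter peaks. Fold and −log10 p were also solved for a whole number of fragments at the summit, taking fold as (n + 1) / (background + 1) and p as a Poisson tail. Between 95.8 and 99.97% of the peaks of a list were solved to within 0.001 of their −log10 p. Whether these are fragments or reads is not recorded. PCR copies are not independent molecules. The limma intervals reflect the spread between libraries, and the Wilson interval the number of genes.

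Groups came from the labels. Genes were those of GENCODE release 44 lifted to GRCh37, and coordinates are 1-based. A promoter peak was 1 within 1 kb of the most 5′ end. Peaks were counted per library, and widths were compared with limma 3.58.1 (R 4.3.3) on log2 bases under peaks after median centring per library, with Benjamini-Hochberg adjustment over all promoters tested, and the step was tested on simulated widths. Sequences came from GRCh37 by pysam 0.24.0. The RefSeq promoter table (GRCh38) matched 46 of the 55 genes and served as an alternative. Python 3.11.15, numpy 2.4.6, pandas 2.3.3, scipy 1.17.1 and matplotlib 3.10.9 were used.

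The genes, lists and tests were chosen with earlier results of these data known. Values in every library are given for genes called in 1 line only, for the highest mean rank in each factor group, for the 3 smallest width p-values in each direction and for genes without a peak. Other genes were named by factor group, and genes printed as sequence were picked with those values in view. Settings varied were the window (2.5 kb), the start (any transcript), the −log10 q minimum (5), the list lengths (made equal), IgG-overlapping peaks (removed), the rank (by fold), width centring, the replicate block and each library in turn (left out). The canonical start was added after seeing the data. The first HA-Bcl-xL H3K4me3 library is not analysed here, and PECAM1, a listed endothelial marker, was not matched.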

Additional observations from a re-analysis of the deposited data

How the results depend on the processing

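The 27 genes with a peak in all 5 libraries became 17 with a −log10 q of at least 5, and 22 to 32 under the other settings, with 27 to 31 when 1 library was left out. The difference in genes called, HA-Bcl-xL minus control, turned from 1.83 to -0.167 with equal list lengths, and ranged from -0.667 (without HA-Bcl-xL replicate 2) to 5 when 1 library was left out. Genes called only in HA-Bcl-xL cells numbered 2 with any transcript start, and 0 with a −log10 q of at least 5 or equal list lengths, and ranged from 1 to 3 when 1 library was left out. Genes called only in control cells then ranged from 0 to 2, and neither range has a share of all genes beside it. The number of genes with an IgG promoter peak was 1 with any transcript start and 0 otherwise. The mean summit position was 376.3 bp in the 2.5 kb window (202 bp for all genes) and -6 bp from canonical starts (-6.8 bp), and ranged from 194.25 to 268 bp when 1 library was left out. The CpG-rich share was 94.5% at canonical starts. Nothing in the labels pairs samples of the same replicate number, and correlations of same-numbered widths were 0.0258 and 0.0483. With 2 HA-Bcl-xL libraries these correlations mirror each other and cannot show whether samples were paired. With a replicate block, limma called 13 widths (11 higher, 2 lower, 0 of them initiation factors), and the difference in genes called was 5. When 1 library was left out, 0 to 9 widths were called (9 without HA-Bcl-xL replicate 3, 3 without HA-Bcl-xL replicate 2, 1 without control replicate 2), and 0 initiation factors each time. Where 1 HA-Bcl-xL library was left, it was assumed to vary like the controls. The median rank ranged from 69.3 to 72.2. Median depths of 9 to 12 fragments per summit limit all calls.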
